A study of Mus musculus with 18 samples.

Results

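The MaP R172H/- tumors were compared with the MaP -/- tumors of the same mouse model, gene by gene, over protein-coding genes. All 7 tumors labelled MaP R172H/- and all 6 labelled MaP -/- were taken, and a gene was protein-coding when its Ensembl identifier had that biotype in GENCODE M39. Of 57126 genes in the count table, 21685 were protein-coding, and 14685 of these had enough counts to be tested. The 13 tumors are part of a series of 18 mammary tumors.

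In this model, adenovirus carrying Cre-recombinase (Ad-Cre) was injected into the mammary gland, where it removed the wild-type Trp53 cDNA from the endogenous locus in ductal epithelial cells. MaP R172H/- tumor cells then carry the R172H missense allele over a null allele, and MaP -/- tumor cells carry no functional Trp53 allele. Recombination is limited to these cells, so RNA from a whole tumor also includes that of host cells with wild-type p53. Of the MaP R172H/- tumors, 3 also carried a Rosa26 LSL-TdTomato reporter allele. Only 4 mice gave the 6 MaP -/- tumors, since JM663 and JM833 contributed 2 apiece. Every MaP R172H/- library was sequenced on an Illumina HiSeq4000 and every MaP -/- library on a NovaSeq with longer reads, so platform follows genotype and their effects cannot be told apart. By the study's classification, histology also differs between the groups, since the MaP R172H/- tumors were nonmetaplastic adenocarcinomas and most MaP -/- tumors were metaplastic. Molecular subtype, by the study's qPCR of Esr1, Pgr and Erbb2, follows genotype as well. The MaP R172H/- tumors were luminal B or HER2-enriched, and the MaP -/- tumors were all triple-negative. The labels name JM779-T1 and JM836-T1, whereas the study marks the other tumor of each of these mice, of the other histology, as the one sequenced, so the identity and histology of both libraries are uncertain.

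p53 is a transcription factor that is stabilized by stress and activates genes for cell cycle arrest, apoptosis and DNA repair. R172H, the mouse counterpart of human R175H, lies in the DNA-binding domain and disturbs its fold. Such missense proteins often accumulate in tumor cells and lose binding to canonical target genes, and a comparison with null tumors separates the presence of the mutant protein from the loss of the wild-type one.

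Total counts per tumor were between 23113578 and 27930163 in the MaP R172H/- group and between 24736337 and 32085794 in the MaP -/- group. Pairs of tumors had Spearman correlations between 0.808 and 0.975 within the MaP R172H/- group, between 0.842 and 0.966 within the MaP -/- group, and between 0.811 and 0.966 across the groups. The libraries that stood apart on the first 2 principal components were YZ7 (MaP R172H/-), JM663-T2 and JM779-T1 (both MaP -/-). Levels are given as CPM, a gene's counts relative to a library size scaled by TMM, as the lowest, the median and the highest tumor of a group.

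Trp53 itself was higher in the MaP R172H/- tumors. Its CPM was 11.2, 47.4 and 51.5 (lowest, median, highest) in the 7 MaP R172H/- tumors and 9.67, 12.6 and 21.9 in the 6 MaP -/- tumors. All but 1 of the MaP R172H/- tumors lay above 42, beyond the whole MaP -/- range. The library labelled YZ11 was the exception, with 11.2 CPM, inside the MaP -/- range. The log2 fold change was 1.58 ± 0.31 (SE, n = 7 and 6) with an FDR of 0.00794 by edgeR's quasi-likelihood test with Benjamini-Hochberg adjustment over all 20954 genes tested, the test behind every FDR given here. The gene (ENSMUSG00000059552.14) lies on the plus strand at chr11:69469669-69482701 in GRCm39. Without the libraries YZ7, JM663-T2 and JM779-T1 its log2 fold change was 1.38 with an FDR of 0.0508.

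A gene was called when its FDR was below 0.05 and its absolute log2 fold change at least 1. By this rule 230 protein-coding genes were called higher in MaP R172H/- tumors, 1.57% of those tested, and 284 were called lower, 1.93%. These shares are the background for every count of called genes in a list below. Groups did not overlap in 350 genes (2.38%) with the MaP R172H/- tumors on the upper side and in 198 (1.35%) with them on the lower side. Of the called genes, 126 of those higher and 97 of those lower had groups that did not overlap. Without the library labelled YZ11, 186 genes were called higher and 216 lower, and without JM663-T2, 154 and 176.

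The replication-dependent histone genes were the largest group of genes that rose. These genes encode the bulk of the core and linker histones, are transcribed mainly in S phase, and give transcripts that end in a stem-loop and lack a poly(A) tail. Of 67 such genes, 56 were tested, 31 were called higher and none lower, against 1.57% called higher over all protein-coding genes tested. Their median log2 fold change was 1.54, beside 0.05 over all protein-coding genes tested. By class, 10 of 13 H4 genes, 8 of 10 H3 genes, 8 of 12 H2A genes, 3 of 16 H2B genes and 2 of 5 H1 genes were called higher. Of the 31, 28 lie on chromosome 13.

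H4c8, which encodes histone H4, stood at 122, 170 and 229 CPM in the MaP R172H/- tumors and at 7.49, 14 and 31.4 CPM in the MaP -/- tumors. Its log2 fold change was 3.42 ± 0.32, with an FDR of 8.1e-05. H4c11, another H4 gene, stood at 26.1, 47 and 75.2 CPM against 2.88, 4.95 and 9.76 CPM, and H4c12 at 54.2, 89.6 and 131 CPM against 3.67, 7.22 and 23.1 CPM. In all 3 H4 genes the lowest MaP R172H/- tumor was above the highest MaP -/- tumor. The H3 gene H3c6 stood at 57.5, 110 and 149 CPM against 6.71, 13.6 and 29.2 CPM, a log2 fold change of 2.72 ± 0.35. H4c1, H3c8, H4c14, H2ac13 and H2ac15 rose by 2.95, 2.65, 2.62, 3.44 and 2.83 on the log2 scale, each without overlap.

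Summed over the list, histone transcripts held 1942, 3074 and 4140 CPM in the MaP R172H/- tumors and 478, 894 and 1976 CPM in the MaP -/- tumors. The ranges overlap through JM779-T1, the highest MaP -/- tumor, and YZ10, the lowest MaP R172H/- tumor. Of 28 proliferation genes tested none was called by edgeR over the 13 tumors or by DESeq2 (1 was called lower without JM833-T1), and 2 higher and 2 lower had an unadjusted p below 0.05. Their median log2 fold change was 0.04, and Mki67, a marker of cycling cells, stood at 562, 618 and 891 CPM against 364, 640 and 1096 CPM. Pcna, the replication clamp, had a log2 fold change of -0.86 ± 0.25, under the fold change threshold.

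Several library properties go with the histone result. Of the 56 genes, 44 share at least 10% of their 76-base words with another place in the genome, so their reads can be split between copies. Of the 12 without such copies, 6 were called higher. The 5 MaP R245W/- tumors, sequenced on the same instrument as the MaP -/- tumors, had a median log2 fold change over these genes of 1.01 against the same MaP -/- tumors. The labels call the libraries stranded mRNA-Seq, whereas the study's methods describe ribosome-depleted total RNA, and transcripts without a poly(A) tail depend on that step. Its part in the result was not tested. With a per-tumor correction for exon GC content, 25 histone genes were called higher, with a median of 1.23.

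The 250 bases upstream of the transcription start of 4 histone genes are shown, chosen as those called higher with the smallest FDR. They were read from GRCm39 at the start of the canonical GENCODE M39 transcript. CCAAT or its reverse complement and TATAAA or its reverse complement, both typical of histone promoters, are in capitals.
H4c8: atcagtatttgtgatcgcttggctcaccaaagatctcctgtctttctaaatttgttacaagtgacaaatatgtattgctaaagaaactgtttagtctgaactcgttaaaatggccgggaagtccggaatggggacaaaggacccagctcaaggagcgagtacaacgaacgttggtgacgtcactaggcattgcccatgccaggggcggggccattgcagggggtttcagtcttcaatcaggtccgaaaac
H4c11: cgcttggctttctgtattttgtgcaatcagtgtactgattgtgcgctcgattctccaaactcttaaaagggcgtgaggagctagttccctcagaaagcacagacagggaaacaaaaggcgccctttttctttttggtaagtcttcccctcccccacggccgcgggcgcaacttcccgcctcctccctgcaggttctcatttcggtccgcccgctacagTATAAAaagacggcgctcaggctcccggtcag
H4c12: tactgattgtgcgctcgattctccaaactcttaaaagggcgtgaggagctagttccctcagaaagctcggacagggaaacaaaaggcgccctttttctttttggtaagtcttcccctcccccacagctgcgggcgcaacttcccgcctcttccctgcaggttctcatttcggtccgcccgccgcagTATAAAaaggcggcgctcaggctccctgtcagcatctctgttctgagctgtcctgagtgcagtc
H3c6: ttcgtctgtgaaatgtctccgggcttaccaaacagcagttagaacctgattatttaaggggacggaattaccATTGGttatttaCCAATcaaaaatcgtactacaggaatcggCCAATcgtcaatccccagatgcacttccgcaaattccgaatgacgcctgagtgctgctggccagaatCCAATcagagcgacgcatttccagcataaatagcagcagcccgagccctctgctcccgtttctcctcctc
These lie at chr13:23714970-23715219 (plus strand), chr13:21918984-21919233 (plus), chr13:21934676-21934925 (minus) and chr13:23746544-23746793 (minus). H3c6 held 4 copies of CCAAT, H4c11 and H4c12 held 1 TATAAA each, and H4c8 held neither. Among the 56 histone genes tested, 43 (76.8%) held CCAAT and 29 (51.8%) held TATAAA on either strand of this window, against 35.5% and 7.82% of the promoters of all 14685 protein-coding genes tested.

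Nrtn, which encodes the neurotrophic ligand neurturin, had the largest rise of the genes that were both called and free of overlap. It stood at 4.06, 5.97 and 10 CPM in the MaP R172H/- tumors and at 0.0342, 0.643 and 0.763 CPM in the MaP -/- tumors, and the groups did not overlap. The log2 fold change was 3.68 ± 0.55, with an FDR of 0.00142. Its exons are 73.2% GC, and with the GC correction the log2 fold change was 2.24 with an FDR of 0.0275.

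Nrtn is 1 of 8 genes taken from the study, which lists Prss35 for R245W as well as R172H and includes the nuclear receptor Nr5a2. They were chosen on these samples and so are no independent evidence of direction. Of the 8 genes, 7 were tested and 3 were called, all higher, beside 1.57% called higher over all genes. Ifi202b, an interferon-inducible DNA sensor of the p200 family, stood at 7.38, 60.4 and 97.7 CPM against 0.267, 2.51 and 17 CPM, with overlap. Prss35, a serine protease-like gene, stood at 0.513, 1.83 and 48.4 CPM against 0.137, 0.563 and 0.839 CPM. Both calls were fragile. Ifi202b lost its call in 11 of 13 fits that left out 1 tumor and Prss35 in 8. Without YZ7, the log2 fold change of Prss35 went from 4.03 to 2.06, that of Arhgef18, which was not called, from 2.41 to 0.87, and that of Fbxo2, an F-box protein also not called, from 3.11 to 1.17. Msi1, an RNA-binding protein, had 2.40 ± 0.95 (FDR 0.135), and the nuclear receptor gene Nr5a2 had -0.93 ± 0.56 (FDR 0.325), neither called.

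The core of the Nr5a2 binding motif, taken as the final 9 bases most common among the matched sequences of the study (TCAAGGCCA), was searched on both strands of the same 250-base windows. It occurred in 1 of 230 promoters of genes called higher (0.435%) and in 86 of 14685 promoters overall (0.586%). With the final 8 bases (CAAGGCCA), the numbers were 4 of 230 (1.74%) and 248 of 14685 (1.69%). Neither form occurred in the 250 bases upstream of Nrtn. For every gene these windows are far shorter than the stretch the study searched. Only exact matches were counted here, whereas the study used motif search tools. With so few matches, the shares can show neither enrichment nor its absence.

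**Figure D1:**
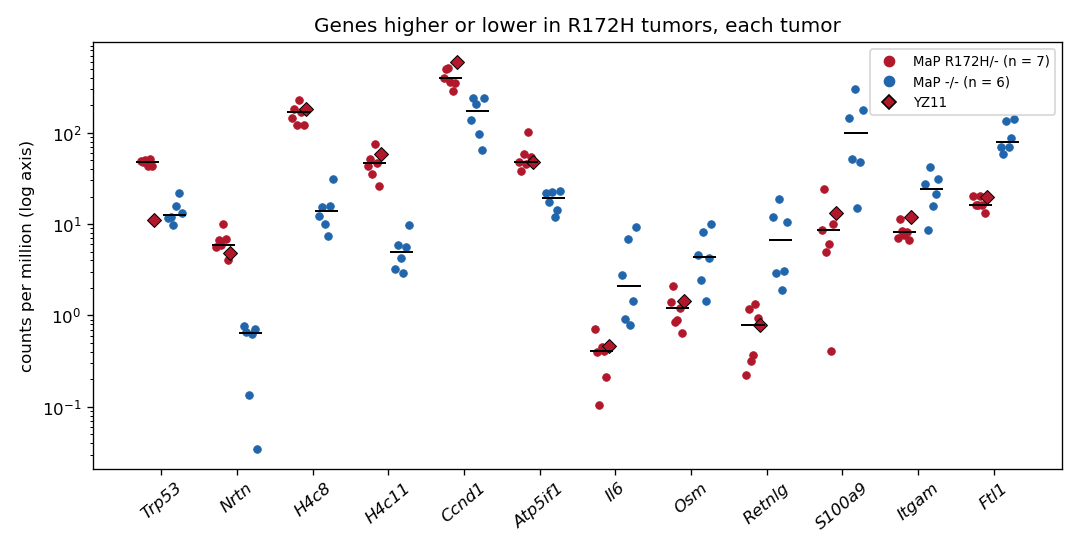
CPM (log axis) of 12 genes in each MaP R172H/- tumor (red, n = 7) and each MaP -/- tumor (blue, n = 6). Black bars are group medians and diamonds mark the library labelled YZ11, whose Trp53 of 11.2 CPM lies inside the MaP -/- range. H4c8 and Nrtn were chosen among genes whose groups do not overlap, so the place of YZ11 in them says nothing about its genotype.

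Other genes that rose span several functions. Ptms, which encodes parathymosin, ranged from 143 to 272 CPM against 37.8 to 88.4 CPM, a log2 fold change of 1.68 ± 0.21. Nabp2, a single-stranded DNA-binding protein of DNA repair, had 1.32 ± 0.15. St6galnac2, a sialyltransferase, stood at 2.68, 3.33 and 11 CPM against 0.137, 0.767 and 1.19 CPM. None of these 3 genes had overlapping groups. Lrfn4, a synaptic adhesion protein, had 1.05 ± 0.13 with an FDR of 0.00042, but 0.13 with the GC correction.

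Pet100, an assembly factor of cytochrome c oxidase, was among the 12 largest rises, with 18.1, 23.4 and 595 CPM against 10.1, 11.9 and 12.4 CPM. The value of 595 CPM is YZ7, and without that library the log2 fold change was 1.22 instead of 3.22. The call was lost in 7 of 13 fits that left out 1 tumor. Neighbouring genes on chromosome 8 were high in the same library. Arhgef18, Zfp358, Mcoln1 and Xab2, chosen after their values were seen, stood at 1905, 500, 1827 and 3080 CPM in YZ7 against MaP R172H/- medians of 89.7, 31, 47.2 and 96.8 CPM.

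Of 24 p53 target genes tested, 1 was called higher and 3 lower (1 lower without JM663-T2), beside 1.57% and 1.93% over all genes. Their median log2 fold change was 0.00. Cdkn1a, the p21 cell cycle inhibitor, had -0.23 ± 0.28, Mdm2, the ubiquitin ligase that limits p53, had -0.04 ± 0.14, and Ccng1, cyclin G1, had -0.15 ± 0.15. None of these 3 was called, and the sign of each turned under at least 1 alternative. Bbc3, which encodes the apoptotic factor PUMA, was higher at 4.89, 6.04 and 8.60 CPM against 1.91, 2.74 and 3.76 CPM, but its log2 fold change of 1.16 was 0.49 with the GC correction. Eda2r, a death receptor family member, was lower at 0.653, 1.79 and 3.56 CPM against 3.62, 5.92 and 24.9 CPM, a log2 fold change of -2.29 ± 0.52. Fas, a death receptor, had -1.31 ± 0.33 and lost its call without JM663-T2. Btg2, an antiproliferative gene, had -1.05 ± 0.27, was named after its value was seen, and lost its call in 8 of 13 fits that left out 1 tumor. With the mouse as a block, Fas (FDR 0.0899) and Btg2 (FDR 0.081) were not called, and with the GC correction no p53 target was called higher.

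Of 17 Wnt target and feedback genes tested, 2 were called higher and none lower, beside 1.57% and 1.93% over all genes. Ccnd1, cyclin D1, stood at 290, 399 and 598 CPM in the MaP R172H/- tumors and at 65.4, 173 and 242 CPM in the MaP -/- tumors, with no overlap. Its log2 fold change was 1.39 ± 0.31 (FDR 0.0142), and 1.3 with the GC correction. Myc, a growth-promoting transcription factor, had 1.01 ± 0.21, just at the fold change threshold, and lost its call in 6 of 13 fits that left out 1 tumor. Axin2, the standard readout of canonical Wnt signaling, had 0.94 ± 0.40 with an FDR of 0.16. None of 32 Wnt ligands, receptors and modulators was called, with a median log2 fold change of 0.41. At an unadjusted p below 0.05, 5 were higher and 1 lower, and DESeq2 called 2 higher and 1 lower.

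Some genes of innate immune cells and inflammatory signaling were called lower, in each list a minority of its members. In bulk tumors, fewer cells of a type and less RNA per cell cannot be told apart. Of 16 neutrophil genes tested, 6 were called lower and none higher, beside 1.93% called lower over all genes, and all 16 had a log2 fold change below 0, with a median of -2.48. S100a9, a calcium-binding protein of neutrophils, stood at 0.405, 8.63 and 24.5 CPM against 15, 99 and 299 CPM, a log2 fold change of -3.66 ± 0.78. S100a8, its partner, had -3.13 ± 0.76 and lost its call without JM663-T2, with -2.58 and an FDR of 0.0602. Retnlg, a resistin-like peptide of neutrophils, stood at 0.224, 0.792 and 1.35 CPM against 1.88, 6.78 and 18.8 CPM, with no overlap. Cstdc4, a cystatin gene, fell by 6.06 on the log2 scale and by 4.86 without JM663-T2. Summed neutrophil levels were 18.6, 85.6 and 170 CPM against 82.8, 306 and 1161 CPM, so the groups overlap. Without JM833-T1, 14 neutrophil genes were called lower, and with the mouse as a block 3 were.

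Of 22 inflammatory cytokine genes tested, 4 were called lower, beside 1.93% over all genes. None was called higher (DESeq2 called 1 higher, and 2 were higher at an unadjusted p below 0.05). Il6, the interleukin-6 gene, stood at 0.105, 0.405 and 0.716 CPM in the MaP R172H/- tumors and at 0.784, 2.11 and 9.24 CPM in the MaP -/- tumors, so the groups did not overlap. Its log2 fold change was -3.21 ± 0.63 (FDR 0.00807). Osm, oncostatin M, a cytokine of the same family, had -2.08 ± 0.44. Il1b, interleukin-1 beta, had -1.91 ± 0.53 and lost its call in 9 of 13 fits that left out 1 tumor. The fourth, Il10, an anti-inflammatory cytokine named after its value was seen, had -1.65 ± 0.46 and lost its call as often. With the mouse as a block, Il1b (FDR 0.145) and Il10 (FDR 0.0892) were not called.

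Among 44 tested genes for chemokines and their receptors, 6 were called lower and none higher, beside 1.93% called lower over all genes. Without YZ2 or JM663-T2, 3 were called lower, without JM663-T1, 10, and with the mouse as a block, 1. Ccr2, the receptor that draws monocytes, stood at 15.9, 36.2 and 54.7 CPM against 45.8, 98 and 128 CPM. Ccl8, another chemokine gene, and Ccl7, a ligand of Ccr2, had log2 fold changes of -2.29 ± 0.53 and -2.21 ± 0.46. Ccl2, the main ligand of this receptor, had -2.43 ± 0.68, and -1.48 without JM663-T2, and lost its call in 9 of 13 fits that left out 1 tumor.

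Of 22 macrophage genes tested, 6 were called lower and none higher, beside 1.93% called lower over all genes, with a median of -0.44. With the mouse as a block 1 was called lower, and with the GC correction 2 were. Itgam, the integrin CD11b of myeloid cells, stood at 6.70, 8.19 and 12.1 CPM against 8.60, 24.5 and 42.3 CPM. Ptprc, which marks all leukocytes, stood at 67.9, 140 and 168 CPM against 195, 268 and 596 CPM, without overlap. Its log2 fold change was -1.24, and -0.93 without JM833-T2. Adgre1, the F4/80 antigen, had -1.04 ± 0.20 and fell short of the fold change threshold without YZ2 or JM779-T1. Rgs1, a regulator of G protein signaling in leukocytes, stood at 2.21, 5.17 and 10.7 CPM against 15.9, 22.7 and 108 CPM. Summed macrophage genes overlapped between the groups, at 1940, 3223 and 10189 CPM against 2989, 4731 and 8174 CPM. Of 21 T and NK cell genes, 1 was called lower, beside 1.93% over all genes. It was Ncr1, an NK cell receptor (-2.85 ± 0.72, lost without YZ3, JM663-T2 or JM833-T2 and not tested without YZ11). Of 10 B and plasma cell genes none was called by edgeR over the 13 tumors or by DESeq2, although 8 were lower at an unadjusted p below 0.05 and the median was -2.92. In the edgeR fit of all 18 tumors 4 were called lower, and 1 was without YZ11, JM836-T1, JM663-T1 or JM779-T1. Ms4a1, the B cell antigen CD20, was 96.6 CPM in JM833-T2, and its log2 fold change went from -4.55 to -1.25 without that tumor. No interferon-stimulated gene of 29 and no antigen presentation gene of 16 was called, with medians of 0.22 and 0.48. At an unadjusted p below 0.05, 1 of the former was lower and 6 of the latter higher, and DESeq2 called 1 interferon-stimulated gene lower.

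**Figure D2:**
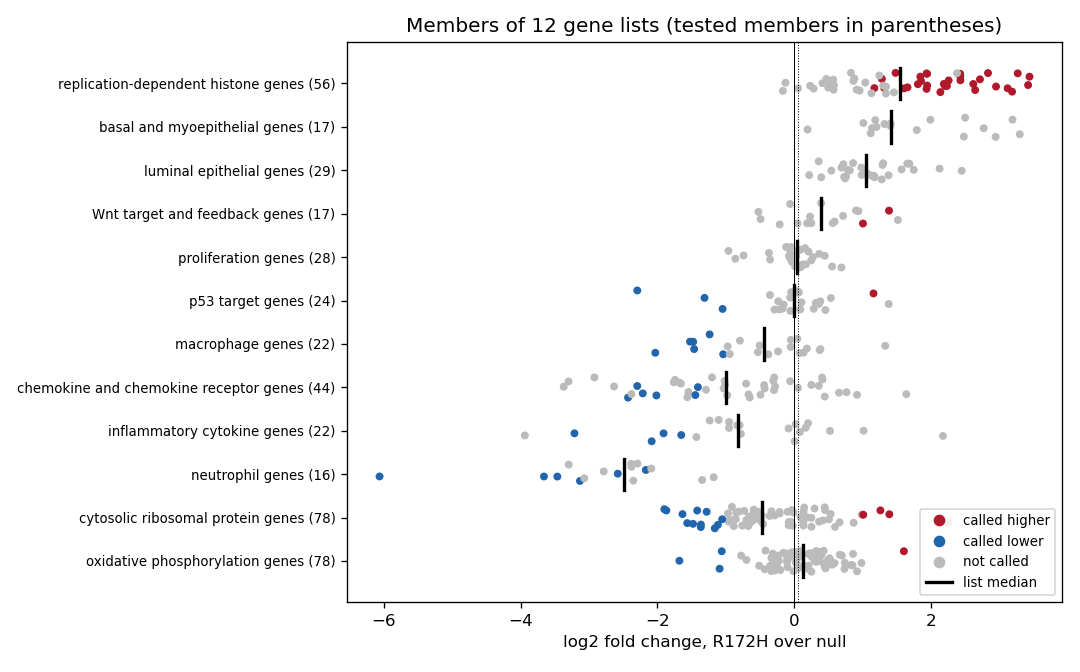
Log2 fold change of MaP R172H/- over MaP -/- tumors for each tested member of 12 gene lists, with called genes in color, list medians as black bars and the median over all protein-coding genes as a dotted line. The histone list has 31 red points and no blue one, whereas all 16 neutrophil genes lie below 0.

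Epithelial genes had log2 fold changes above 0, but none was called and their summed levels overlapped between the groups. All 29 luminal epithelial genes and all 17 basal and myoepithelial genes tested had log2 fold changes above 0, with medians of 1.04 and 1.41. Over all protein-coding genes tested, 7932 of 14685 were above 0, with a median of 0.05. Summed luminal levels were 718, 7302 and 16179 CPM against 313, 3208 and 5403 CPM. Summed basal levels were 1444, 1705 and 6214 CPM against 363, 1155 and 2118 CPM. At an unadjusted p below 0.05, 2 luminal and 9 basal genes were higher, and DESeq2 called 1 and 5 of them higher. Krt8, a luminal keratin, stood at 18.5, 746 and 2658 CPM against 26.6, 422 and 680 CPM. Its partner Krt18 stood at 40.2, 1123 and 2751 CPM against 88.7, 378 and 802 CPM. The lowest values belong to YZ7 among the MaP R172H/- tumors and to JM779-T1 among the MaP -/- tumors. In both, Krt8 and Krt18 were far below those of the other tumors of their groups. Without YZ7, Krt19 (log2 fold change 2.35, FDR 0.041) and Cldn3, a tight junction protein (2.66, FDR 0.0327), were called. Krt17, a basal keratin, had 3.19 ± 1.12, and 1.47 without YZ4.

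Hormone and ERBB receptor genes had a median of 0.06 and no call among 12 by edgeR over the 13 tumors or by DESeq2, nor an unadjusted p below 0.05. By qPCR, another measure, the study had classed the MaP R172H/- tumors as luminal B or HER2-enriched and the MaP -/- tumors as triple-negative. Esr1, the estrogen receptor, had -0.59 ± 0.44, and Erbb2, the HER2 gene, stood at 35.8, 103 and 118 CPM against 13.7, 52.3 and 102 CPM. Of 16 EMT and mesenchymal genes, 1 was called, and lower, beside 1.93% called lower over all genes. Twist2, a mesenchymal transcription factor, stood at 0.224, 0.299 and 0.733 CPM against 0.549, 1.57 and 34 CPM, and its log2 fold change went from -4.23 to -2.44 without JM779-T1. With the mouse as a block its FDR was 0.146, and without YZ7, JM663-T2 and JM779-T1 it was 0.0848, so neither fit called it. Vim, vimentin, was 4782 CPM in JM779-T1 and 1391 CPM in YZ7, and Zeb1, a repressor of epithelial genes, was 153 CPM in JM779-T1, 147 CPM in JM663-T2 and 135 CPM in YZ7. Of 22 fibroblast and matrix genes 4 were called lower, beside 1.93% over all genes, while the median was -0.29. The 4 were the matrix protease Mmp3 (-2.72 ± 0.60, and -1.78 without JM663-T2), Fap (-1.19 ± 0.27, and -0.91 without JM833-T1), Lum (-1.98 ± 0.49, lost without YZ2, YZ10 or JM833-T1) and Pdgfra, named after its value was seen (-2.49 ± 0.63, lost without YZ2). Without YZ2 or JM833-T1, 2 were called lower, and with the mouse as a block 1 was, Fap.

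**Figure D3:**
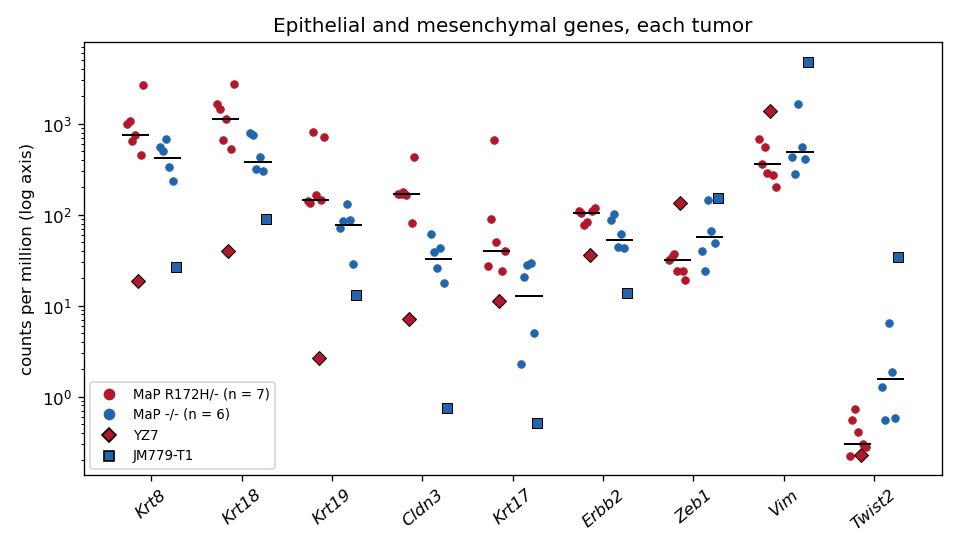
CPM (log axis) of 9 epithelial and mesenchymal genes in each MaP R172H/- (red) and MaP -/- (blue) tumor, with group medians as bars. YZ7 (diamond) and JM779-T1 (square) have the lowest Krt8 and Krt18 and the highest Zeb1 and Vim of their groups.

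Ferritin, mitochondrial and ribosomal genes made up many of the falls with the smallest FDR. Ftl1, the ferritin light chain that stores iron, stood at 13.3, 16.2 and 20.5 CPM against 58.7, 78.2 and 140 CPM, a log2 fold change of -2.42 ± 0.23, and Ftl1-ps1, annotated as protein-coding here, had -4.09 ± 0.37. mt-Co3 and mt-Co2, subunits of cytochrome c oxidase encoded in mitochondrial DNA, had -3.18 ± 0.26 and -2.62 ± 0.24. None of these 4 genes overlapped between groups. Every 76-base word of mt-Co3 and mt-Co2 also occurs elsewhere in the genome, as do 66.5% of those of Ftl1 and 44.4% of those of Ftl1-ps1. By contrast, mt-Nd1 and mt-Cytb, chosen after their values were seen and with no such word, had 1.17 and 1.3 in the same tumors. mt-Co1, another mitochondrial subunit of cytochrome c oxidase, had medians of 7567 against 4581 CPM and was not called (0.64, FDR 0.105). Between MaP R245W/- and the same MaP -/- tumors, mt-Co3 and mt-Co2 had 0.16 and -0.01.

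Of 78 cytosolic ribosomal protein genes, 12 were called lower and 3 higher, beside 1.93% and 1.57% over all genes, with a median of -0.48. The 3 were Rps26, Rpl36 and Rplp1, named after their values were seen. Rplp1 lost its call in 7 of 13 fits that left out 1 tumor. Rpl39 stood at 48.3, 54 and 81.9 CPM against 127, 216 and 250 CPM, and Rpl10 at 89.8, 104 and 151 CPM against 257, 395 and 566 CPM, both without overlap. Rpl23a and Rpl9-ps6 fell by 1.63 and 2.45 on the log2 scale. Between MaP R245W/- and the same MaP -/- tumors, the median over the ribosomal list was 0.49. Of the 78 genes, 62 share at least 10% of their words with other places in the genome, and 12 of the 15 calls fell on these. With such genes left out, 3 ribosomal protein genes were called lower and none higher. Among 78 oxidative phosphorylation genes, 1 was called higher and 3 lower, counts near the 1.57% and 1.93% over all genes. Of these 78 genes, 47 were above 0, with a median of 0.13. At an unadjusted p below 0.05, 18 were higher and 7 lower. Of those called lower, Ndufb1, a subunit of complex I, stood at 7.60, 9.25 and 13.4 CPM against 23.5, 31.4 and 42.5 CPM, with no word elsewhere. Atp5mj, of the ATP synthase, had -1.09 ± 0.17, and Cox7c, named after its value was seen, had -1.06 ± 0.17 and lost its call without YZ7 or JM836-T1. Atp5if1, the inhibitor of that synthase, rose to 37.9, 48.4 and 103 CPM from 12, 19.5 and 23.1 CPM.

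Of the other large falls, Smim36, a small membrane protein, and Wfdc21, a secreted protease inhibitor-like gene, had -2.88 ± 0.44 and -2.64 ± 0.55. Vmn2r96, a vomeronasal receptor gene, had -4.68 ± 0.84, and -3.68 without JM663-T2, and Ppihl, of which 75% of words lie elsewhere, had -2.77 ± 0.45. Pgk1, a glycolytic enzyme with 91.1% of its words elsewhere, had -1.97 ± 0.41. It was 1 of 2 genes called lower among 20 glycolysis and hypoxia genes, beside 1.93% over all genes. The other was Bnip3 (-1.71 ± 0.45), which lost its call in 7 of 13 fits that left out 1 tumor. Of 16 endothelial genes 1 was called lower, beside the same 1.93%. It was Cldn5, a tight junction protein (-1.36 ± 0.39, and -0.85 without JM833-T1, lost in 10 of these fits), and Pecam1, an adhesion molecule of vessels, had -0.77 ± 0.17. Among 17 adipocyte genes, 13 skeletal muscle genes, 11 milk protein genes, 7 squamous genes and 23 cholesterol synthesis genes none was called, with medians of -2.81, 0.72, -0.56, 0.11 and 0.37. At an unadjusted p below 0.05, 6 adipocyte and 1 milk protein genes were lower and 2 squamous genes higher, while 2 skeletal muscle genes were higher and 1 lower and 5 cholesterol synthesis genes higher and 1 lower. DESeq2 called 3 adipocyte genes and 1 milk protein gene lower and 1 cholesterol synthesis gene higher. Of 13 neuronal genes 1 was called lower, again beside 1.93% over all genes. It was Stmn2, a regulator of microtubules, whose -5.71 became -3.58 without JM663-T2. The adipocyte gene Fabp4 went from -3.62 to -1.31 without JM833-T1.

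The fold changes followed the GC content of the exons. The median log2 fold change rose from -0.24 in the decile with the lowest GC content to 0.52 in the decile with the highest. Of the 230 genes called higher, 115 were in the highest decile, and of the 284 called lower, 76 were in the lowest. Median exon GC content was 56.7% in genes called higher, 44.9% in genes called lower and 49.0% in all genes tested. Between MaP R245W/- and the same MaP -/- tumors, both on the NovaSeq, the medians of these 2 deciles were 0.02 and 0.29. With the per-tumor GC correction 97 genes were called higher and 198 lower, of which 91 and 170 were among the calls above. The histone genes named above, Nrtn, Trp53, Ccnd1, Il6, Osm, S100a9 and Retnlg kept their calls under it.

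**Figure D4:**
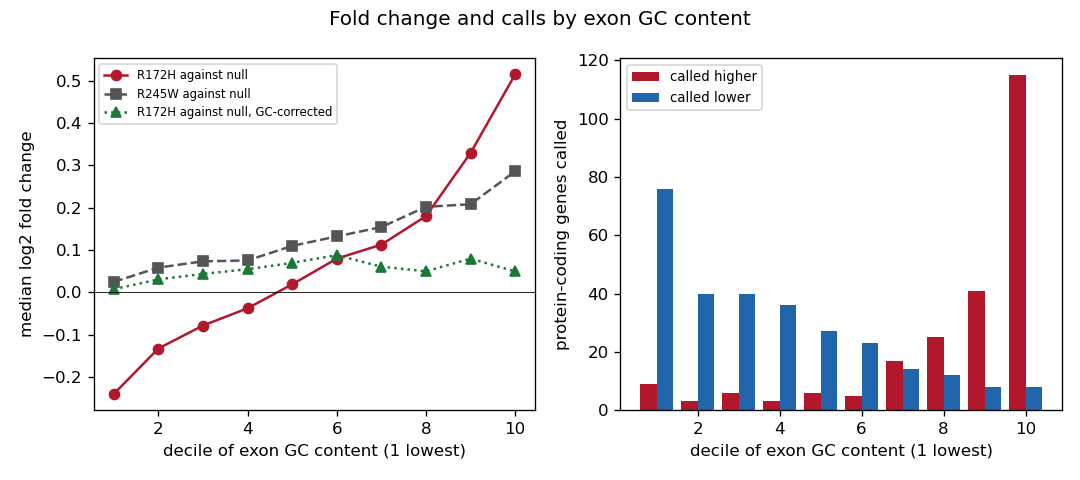
Median log2 fold change (left) and number of protein-coding genes called (right) by decile of exon GC content. The uncorrected MaP R172H/- comparison climbs from -0.24 to 0.52, and 115 of the genes called higher sit in decile 10.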

How the data were processed

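RNA from 7 MaP R172H/- and 6 MaP -/- mammary tumors was sequenced by the authors. According to the submitters' processing notes, reads were checked with FastQC 0.11.9, aligned with STAR 2.7.10b to GRCm39 (mm39) and counted per gene with RSEM 1.3.3. The deposited values are whole-number counts per gene without normalization, and no column was left without a sample. Biotypes came from GENCODE M39 for 56620 of 57126 genes, and the other 506 made up 0.0464% of the counts or less. Depth was at least 23113578 counts per tumor, and intervals from replicates do not cover platform, which follows genotype.

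All genes that passed filterByExpr were fitted over the 13 tumors with edgeR 4.0.16 (TMM, quasi-likelihood F test, R 4.3.3), adjusted with Benjamini-Hochberg over 20954 genes, and the protein-coding rows printed. SE is the absolute log2 fold change over the square root of F. Platform could not be a covariate. P-values treat 2 tumors of 1 mouse as separate. Counts were simulated with the dispersions of this comparison, as independent tumors with none from a shared mouse. Without a GC bias (20594 genes fitted), 89.9% of genes changed by 3 and 49.0% of those changed by 1.5 on the log2 scale were recovered. In that setting 9 unchanged genes were called. With a GC bias simulated in the MaP R172H/- group, 87% and 36.1% were recovered and 13 unchanged genes were called. That bias gave unchanged genes of the highest GC decile a median log2 fold change of 0.413, below the 0.52 of that decile in the data. The 13 genes are therefore no measure of how many calls in the data go with GC content.

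The genes and the 29 lists were chosen with earlier results of these data known. Named genes were Trp53, the 12 largest rises and falls among called genes without overlap and with a median of at least 1 CPM, the 6 smallest FDRs in each direction, the genes the study named, and of each other list the first 3 members and the 3 with the smallest p. Alternatives were RLE size factors, DESeq2 1.42.0, other filters and thresholds, protein-coding genes alone, tumors of a mouse summed, limma 3.58.1 voom with the mouse as a block, all 18 tumors, and each tumor left out. Chosen after seeing the data were a lowess correction for exon GC content per tumor (span 0.3), leaving out genes with at least 10% of 76-base words elsewhere in GRCm39, and leaving out YZ7, JM663-T2 and JM779-T1.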

Additional observations from a re-analysis of the deposited data

Results flagged for a closer look

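In 27 cases, 1 tumor lay far from the rest of its group in a gene named above, on the log2(CPM + 1) scale. About 1 group in 20 would do so by chance. Of 204 groups of tumors looked at, 1 for each of these genes and genotypes, these 27 stood out. Trp53 was 3.61 in the library labelled YZ11, below the 5.46 to 5.71 of the other MaP R172H/- tumors.

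YZ7 accounts for 11 of the cases. It was low for Krt8 (4.28), Krt18 (5.36), Krt19 (1.87), Cldn3 (3.01), Erbb2 (5.20), Il1b (2.02) and Cox7c (3.80) and high for Zeb1 (7.08), Rplp1 (10.09), Pet100 (9.22) and Xab2 (11.6). Among the MaP -/- tumors, JM779-T1 was low for Krt8 (4.79) and Cldn3 (0.81) and high for Eda2r (4.70) and Rpl36 (6.84). JM833-T2 was high for Ptprc (9.22), Ms4a1 (6.61) and Akap17a (2.86), and YZ11 was high for Ms4a1 (2.09) within its own group. Ftl1-ps1 was 3.97 in JM663-T2 and mt-Co2 was 3.27 in JM836-T1. Cldn5 was 5.46 in JM833-T1, and Stmn2 was 1.75 in YZ4. YZ6 was high for Rpl39 (6.37) and Rpl10 (7.24), and YZ2 was low for Adgre1 (5.25).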

How the results depend on the processing

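No gene called in MaP R172H/- against MaP -/- tumors changed sign under any alternative that fitted it. Genes called higher and lower numbered 230 and 284. They numbered 441 and 528 with DESeq2, 40 and 93 at an absolute log2 fold change above 2, and 622 and 520 at the FDR threshold alone. With tumors of 1 mouse summed, 152 were called higher. With the mouse as a block, 134 were called lower. With the GC correction, chosen after seeing the data, 97 were called higher. Leaving out 1 tumor gave 154 to 252 higher and 176 to 378 lower, the lowest of both without JM663-T2. Trp53 had 1.497 to 1.74 in these fits, and 1.38 (FDR 0.0508) without YZ7, JM663-T2 and JM779-T1. Of 76 called genes named here, 53 kept their call whichever tumor was left out. The mouse block lost 23 of these calls, the GC correction 20 and leaving out the 3 tumors 21.

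Uncalled genes near 0 turned sign. Leaving out 1 tumor gave Cdkn1a -0.34 to 0.021, Mdm2 -0.12 to 0.016 and Mki67 -0.033 to 0.30. Without the 3 tumors, Cdkn1a had 0.096 and Mdm2 0.060. With the GC correction, Mdm2 had 0.079 and Ccng1 0.089. The cause was not tested. No paired analysis was possible because the tumors of the 2 genotypes came from different mice and the labels match none of them. With 7 and 6 tumors, genes with low counts have wide errors.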

Other observations

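The last 4 protein-coding genes tested at the distal end of the X chromosome were all called higher in MaP R172H/- tumors. These genes were noticed after their values were seen. Mid1, a microtubule-associated ubiquitin ligase, had a log2 fold change of 1.65 ± 0.33 (FDR 0.00876), and 1.63 with the GC correction. Sts, steroid sulfatase, had 3.45 ± 0.65 and passed the filter on low counts in 7 of 13 fits that left out 1 tumor, Nlgn4l, a synaptic adhesion protein, had 1.49 ± 0.43 and lost its call in 10 of 13 fits that left out 1 tumor, and Akap17a, a splicing-related anchoring protein, had 1.51 ± 0.27. With the GC correction these 3 had 1.94, 0.99 and 0.12 and were not called. Over the whole X chromosome, 7 of 472 genes tested were called higher and 25 lower.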
